A study of Mus musculus with 6 samples.

Results

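The genes described here are 10 targets and relatives of the liver X receptor (LXR) pathway in mouse peritoneal macrophages: the receptor gene Nr1h3, the cholesterol exporters Abca1 and Abcg1, the ubiquitin ligase gene Mylip, the desaturases Scd1 and Scd2, the apolipoproteins Apoe, Apoc1 and Apoc4, and the lipoprotein lipase gene Lpl. They were chosen by name, and each matched 1 of 22167 gene rows kept in every deposited table. RNA came from peritoneal macrophages of C57Bl/6 mice that carried a hemizygous knockout of miR-221 and miR-222 on the X chromosome (-/Y, called KO) or were wild type (WT). In each genotype, tolerized cells had 10 ng/ml lipopolysaccharide (LPS) for 15 h, a wash and 2 h of rest, and then 1000 ng/ml LPS for 4 h, LPS cells had 1000 ng/ml for 4 h with no earlier dose, and naive cells had none. All groups were kept in DMEM with 10% serum, which also carries lipoproteins. The labels give no age of the mice and no restriction of the knockout to a cell type. There was 1 library for each of these 6 groups. The series speaks of triplicates, and whether animals were pooled is not stated.

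LXR alpha, the product of Nr1h3, and LXR beta, the product of Nr1h2, are nuclear receptors that bind oxysterols, pair with a retinoid X receptor (RXR) and switch on genes that move cholesterol out of the cell and store or desaturate fatty acids. In macrophages they are known for driving cholesterol efflux through Abca1 and Abcg1 and for acting on the Apoe gene cluster through shared enhancers. Toll-like receptor signalling has been reported to lower LXR target transcription in mouse macrophages.

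The deleted microRNAs share 1 seed, the stretch of bases 2 to 8 that pairs with targets, shown here in capitals because it decides which member could carry a site (mature sequences from RefSeq, GRCm38.p6, X chromosome, minus strand).
mmu-miR-221-3p: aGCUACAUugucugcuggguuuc
mmu-miR-222-3p: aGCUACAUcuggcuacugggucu
The matching DNA letters ATGTAGC stood in the 3′ UTR of 1 of the 10 members, Mylip, at position 1282 of 1512 (GENCODE M21, capitals mark the match).
Mylip 3′ UTR: atattgccttaATGTAGCagtaatgtgttt
The match is a description of letters. It occurred in 995 of 9012 tested genes with a 3′ UTR sequence (11.04%). The Mir221 and Mir222 rows were listed at 0 FPKM in all 6 libraries, which is no check of the genotype labels, because mature microRNAs carry no poly-A tail and are not captured.

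Values are FPKM, fragments scaled to transcript length and to the mapped fragments of the library, which are per length and can be set beside each other between genes. Depth was read only from the width of the deposited intervals, which cover counting error and had a median half-width of 5.03% to 5.97% of the value at 10 FPKM or more. Conditions were compared with a limma fit on log2(FPKM + 1) over 10139 genes, with 2 libraries per condition and genotype as a second term. "Rose" and "fell" are used where its Benjamini-Hochberg adjusted p was under 0.05, and pairs of single libraries are described by size, at least 2-fold, with no test. The naive KO library stood apart from its WT counterpart: all 10 LPS-response markers were higher in it, their sum was 1228 FPKM in naive KO against 109.0 FPKM in naive WT cells, and Tnf had 219.9 FPKM in naive KO against 28.7 FPKM in naive WT cells. Both were far below the LPS libraries, whose sums were 49405 FPKM in KO and 55224 FPKM in WT cells. All 12 macrophage markers passed 2 FPKM in at least 2 libraries, but so did all 8 B cell and 5 of 6 mast cell markers. The macrophage label fitted the markers by level: they summed to 11996 to 52985 FPKM, most of it the lysozyme gene Lyz2, which exceeded Apoe in each library. Markers of fat and liver cells, which also express several of these lipid genes, were at or near 0. The 7 adipocyte markers summed to 0 to 1.79 FPKM and the 8 hepatocyte markers to 0 to 0.238 FPKM. B cell markers were present in every library, at a summed 274.4 to 757.5 FPKM, and so were mast cell markers, at a summed 106.4 to 199.9 FPKM. In bulk RNA, fewer cells of a type and less RNA per cell cannot be told apart.

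The cholesterol exporter genes Abca1 and Abcg1 and the receptor gene Nr1h3 fell with LPS and were higher again in tolerized cells. Abca1 (chromosome 4, 53043661 to 53172767, mm9), whose product loads cholesterol and phospholipid onto lipid-poor apolipoprotein A-I, had 39.8, 8.29 and 47.6 FPKM in tolerized, LPS and naive KO cells. In WT cells it had 41.2, 5.87 and 68.9 FPKM with the tolerized, LPS and naive treatments. Both LPS libraries lay far below all others, and both tolerized libraries lay below both naive ones. Abca1 fell by 2.87 ± 0.27 on the log2 scale with LPS relative to naive (SE, 2 libraries per condition; limma adjusted p = 0.00061) and rose by 2.38 ± 0.27 in tolerized relative to LPS cells (adjusted p = 0.0069). Tolerized and naive cells differed by -0.49 ± 0.27 (adjusted p = 0.23). In FPKM, the LPS level was 5.74-fold lower than naive in KO and 11.7-fold lower in WT cells. On the log2(FPKM + 1) scale, LPS minus naive was -2.39 in KO and -3.35 in WT cells. After rescaling to a common median these were -1.57 in KO and -2.64 in WT cells.

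Abca1 was the only 1 of 5 members with a RefSeq promoter entry (Abca1, Nr1h3, Mylip, Apoe and Apoc4) to hold letters like the direct repeat that LXR and RXR bind. They were searched as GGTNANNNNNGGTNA on both strands from 250 bases before to 50 after each start site, where the last N of the gap is the first base of the second repeat. The letters are shown because Abca1 is a classical LXR target, with Srebf1, the gene of a lipogenic transcription factor and another classical target, beside it for comparison (GRCm38.p6, minus strand genes, each printed along the gene's strand, capitals mark the match, which reads on the opposite strand).
Abca1, chr4:53159940-53159969: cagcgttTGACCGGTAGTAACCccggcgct
Srebf1, chr11:60210631-60210660: acgacagTGACCGCCAGTAACCccagcgcg
Counted from the start site, the Abca1 match began at position -67 and the Srebf1 match at position -182 of 1 of its 3 annotated starts. In all, 221 of 27025 genes (0.818%) had such a match. Srebf1 had 14.4, 9.08 and 17.7 FPKM in tolerized, LPS and naive KO cells and 16.3, 11.6 and 17.0 FPKM in tolerized, LPS and naive WT cells, and it fell by 0.70 ± 0.20 with LPS (adjusted p = 0.022), close to the median of all genes tested (-0.76).

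Abcg1 (chromosome 17, 31194639 to 31254926), which passes cholesterol to mature HDL particles, had 7.95, 2.92 and 17.9 FPKM in tolerized, LPS and naive KO cells. In WT cells the tolerized, LPS and naive libraries held 6.12, 3.43 and 29.7 FPKM. The conditions did not overlap, with LPS lowest, tolerized between and naive highest. Abcg1 fell by 2.53 ± 0.28 with LPS (adjusted p = 0.00080), rose by 0.94 ± 0.28 in tolerized relative to LPS cells (adjusted p = 0.038) and fell by 1.59 ± 0.28 in tolerized relative to naive cells (adjusted p = 0.010). The rise from LPS was not called after rescaling to a common median (0.47, adjusted p = 0.25), without either LPS library (adjusted p = 0.14 without KO LPS, 0.13 without WT LPS) or without the tolerized KO library (0.56, adjusted p = 0.30), nor with a pseudocount of 5 (adjusted p = 0.087) or no filter on low values (adjusted p = 0.10). The ratio of Abca1 to Abcg1 was 5.01, 2.84 and 2.65 in tolerized, LPS and naive KO cells and 6.73, 1.71 and 2.32 in tolerized, LPS and naive WT cells, so it was highest in the tolerized library of each genotype.

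Nr1h3 (chromosome 2, 91024218 to 91035273), the gene of LXR alpha and itself an LXR target in human macrophages, had 27.3, 3.94 and 20.5 FPKM in tolerized, LPS and naive KO cells. Its WT values were 17.5, 4.38 and 13.05 FPKM in tolerized, LPS and naive cells. Both LPS libraries were below all others, and the tolerized library was the highest of each genotype. Nr1h3 fell by 1.75 ± 0.25 with LPS (adjusted p = 0.0017) and rose by 2.15 ± 0.25 in tolerized relative to LPS cells (adjusted p = 0.0071). Tolerized minus naive was 0.40 ± 0.25 (adjusted p = 0.29). By single libraries, LPS minus naive for Nr1h3 was -2.12 in KO and -1.39 in WT cells. After rescaling these were -1.36 in KO and -0.72 in WT cells, the WT value being under 2-fold. Nr1h2, the gene of LXR beta, stood at 34.0 to 36.6 FPKM in the tolerized and LPS libraries and at 46.4 FPKM in naive KO and 44.9 FPKM in naive WT cells, a difference of -0.36 ± 0.20 with LPS (adjusted p = 0.15). Rxra, the gene of the main myeloid RXR, had 14.7, 5.16 and 32.4 FPKM in tolerized, LPS and naive KO cells and 16.4, 4.50 and 44.6 FPKM in tolerized, LPS and naive WT cells. It fell by 2.74 ± 0.22 with LPS (adjusted p = 0.00048) and rose by 1.5 ± 0.22 in tolerized relative to LPS cells (adjusted p = 0.0081).

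**Figure D1:**
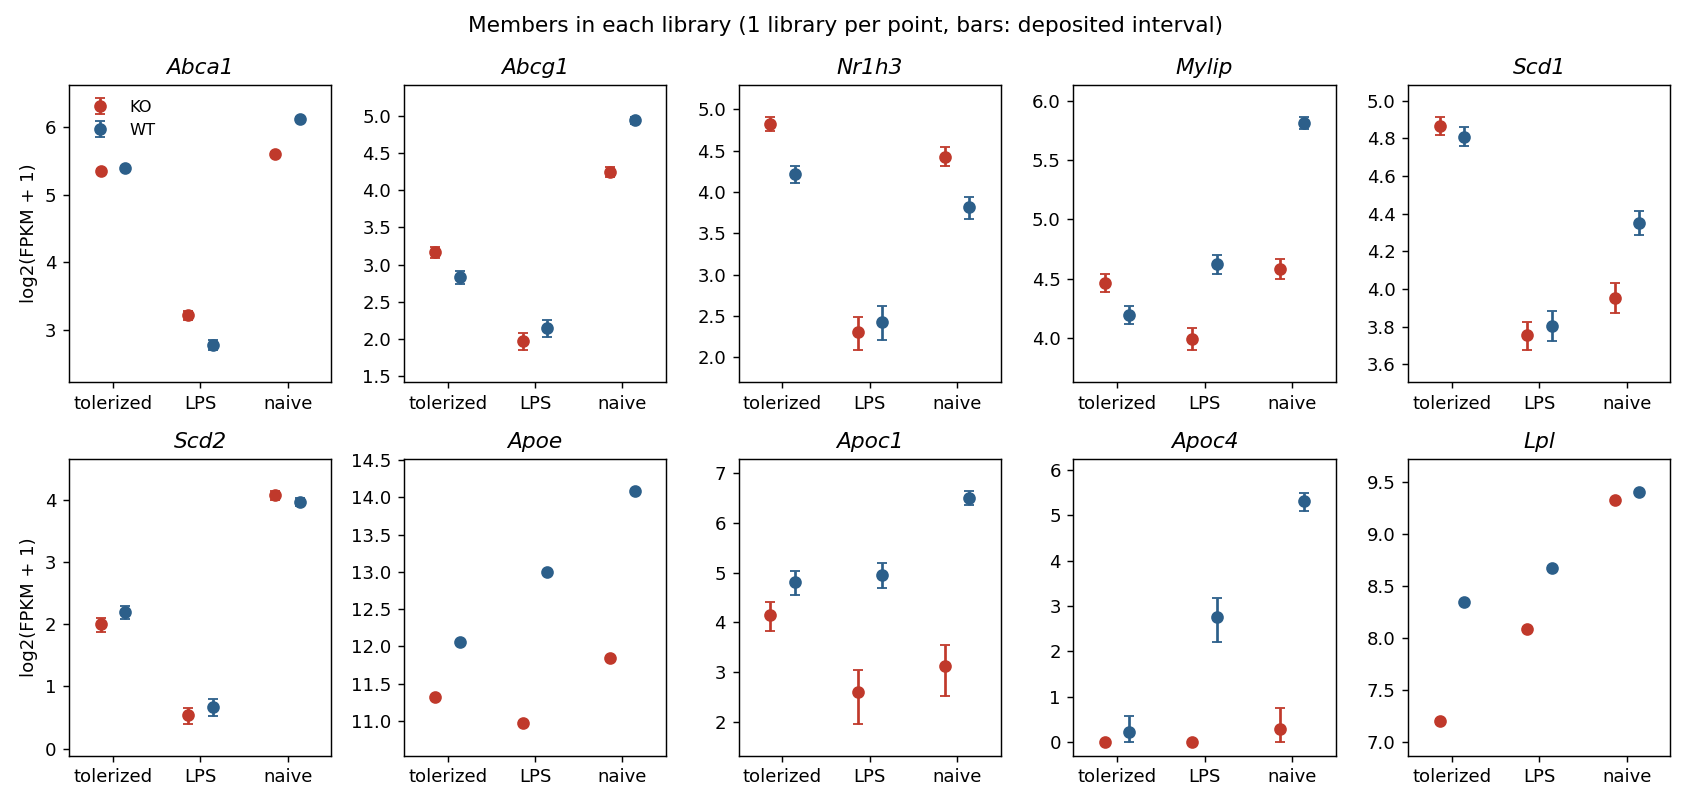
Level of each of the 10 genes as log2(FPKM + 1) in tolerized, LPS and naive libraries, KO (red) left of WT (blue), 1 library per point, bars showing the deposited interval (not drawn wider than the symbol for abundant genes). Abca1, Abcg1, Nr1h3, Scd1 and Scd2 are lowest in both LPS libraries, with Scd1 in LPS and naive KO cells close together (12.5 and 14.5 FPKM). Apoe, Apoc1 and Apoc4 separate the genotypes most in naive cells, for example Apoe, with 3678 FPKM in naive KO cells against 17362.5 FPKM in naive WT cells.

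Mylip (chromosome 13, 45485111 to 45507309), also known as Idol, encodes a ubiquitin ligase that sends the LDL receptor to degradation. It had 21.1, 14.9 and 22.9 FPKM in tolerized, LPS and naive KO cells. In WT cells the tolerized, LPS and naive values were 17.3, 23.6 and 55.2 FPKM. The naive WT library stood alone, and the conditions otherwise overlapped. Mylip differed by -0.89 ± 0.36 between LPS and naive cells (adjusted p = 0.070), and without the naive KO library it was called (-1.41, adjusted p = 0.020). The gene nearest to it in pattern was Arhgap15, at a root mean square distance of 0.096 on the log2 scale over the 6 libraries.

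Scd2 and Scd1 encode desaturases, which introduce a double bond into saturated fatty acids, and lie 87587 bases apart on chromosome 19. Scd2 (44368166 to 44381352) had 2.99, 0.447 and 15.9 FPKM in tolerized, LPS and naive KO cells. In WT cells it had 3.56, 0.588 and 14.6 FPKM in the tolerized, LPS and naive libraries. The conditions did not overlap, and the genotypes lay close together in each. Scd2 fell by 3.42 ± 0.19 with LPS (adjusted p = 0.00034), the largest change of the 10 members in that contrast, rose by 1.49 ± 0.19 in tolerized relative to LPS cells (adjusted p = 0.0077, and 0.051 without the KO LPS library), and fell by 1.93 ± 0.19 in tolerized relative to naive cells (adjusted p = 0.0029). In FPKM, LPS cells were 35.5-fold below naive cells in KO and 24.8-fold below in WT, resting on about 51 and 58 implied fragments in the LPS libraries of KO and WT. On the log2(FPKM + 1) scale, LPS minus naive was -3.54 in KO and -3.30 in WT cells. After rescaling these were -3.04 in KO and -2.80 in WT cells.

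Scd1 (44468940 to 44482199) had 28.1, 12.5 and 14.5 FPKM in tolerized, LPS and naive KO cells. The WT libraries held 27.0, 12.98 and 19.4 FPKM in tolerized, LPS and naive cells. Both tolerized libraries were above all others. Scd1 differed by -0.37 ± 0.21 between LPS and naive cells (adjusted p = 0.16), turning to 0.39 after rescaling (adjusted p = 0.17), and rose by 1.06 ± 0.21 in tolerized relative to LPS cells (adjusted p = 0.013). That rise lost its call after rescaling (0.51, adjusted p = 0.13), without either LPS library (adjusted p = 0.061 without KO LPS, 0.065 without WT LPS) and without the tolerized KO library (adjusted p = 0.10). Tolerized minus naive was 0.69 ± 0.21 (adjusted p = 0.057), and 0.90 after rescaling (adjusted p = 0.032). The ratio of Scd1 to Scd2 was 9.42, 27.9 and 0.913 in tolerized, LPS and naive KO cells and 7.60, 22.1 and 1.33 in tolerized, LPS and naive WT cells. It needs no scaling between libraries. How reads shared by these similar genes were counted is not given in the sources used here.

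Apoe, Apoc1 and Apoc4 lie with Apoc2 in 27588 bases of chromosome 7 (20256928 to 20284515), in the order Apoc2, Apoc4, Apoc1, Apoe, with gaps of 1229 to 8064 bases. Apoe (20281593 to 20284515), which carries lipid and is taken up by LDL receptor family members, had 2562, 2018 and 3678 FPKM in tolerized, LPS and naive KO cells. In WT cells it had 4254, 8172 and 17362.5 FPKM in the tolerized, LPS and naive libraries. Every KO library was below every WT library. It was the gene of rank 3 in naive WT cells, with 3.13% of the summed FPKM, and of rank 11 in naive KO cells, with 0.598%. The FPKM was 4.72-fold lower in KO than in WT naive cells and 4.05-fold lower in KO than in WT LPS cells, and the tolerized KO library was at 0.602 of the tolerized WT level.

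Apoc1 (20274830 to 20278007), a small apolipoprotein that inhibits lipoprotein lipase and lipoprotein uptake, had 16.7, 5.09 and 7.68 FPKM in tolerized, LPS and naive KO cells. The WT values were 27.1, 30.1 and 90.0 FPKM in tolerized, LPS and naive cells. Every KO library was again below every WT library. The naive KO value was 11.7-fold below naive WT and the KO LPS value 5.92-fold below WT LPS. The KO values rested on about 87 (tolerized), 22 (LPS) and 27 (naive) implied fragments.

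Apoc4 (20263443 to 20266765), a minor apolipoprotein of triglyceride-rich particles, was listed at 0 in tolerized and LPS KO cells and had 0.228 FPKM, about 1 fragment, in naive KO cells. The WT libraries had 0.162 FPKM in tolerized, 5.82 FPKM in LPS and 38.7 FPKM in naive cells, about 1, 28 and 204 fragments. Only the LPS and naive WT libraries held more than 1 fragment, so Apoc4 passed the filter on low values through WT cells alone. With a floor of 3 fragments, KO was at least 10.6-fold lower than WT in LPS cells. With 1 fragment in naive KO cells the interval of the KO level reached 0.685 FPKM, against 33.3 FPKM at the lower end of the naive WT interval, and KO minus WT was -5.01 on the log2(FPKM + 1) scale (-5.49 to -4.35 between opposite ends of the intervals). Apoc2, the neighbouring activator of lipoprotein lipase, had 11.97, 8.54 and 24.9 FPKM in tolerized, LPS and naive KO cells and 19.7, 26.2 and 100.6 FPKM in tolerized, LPS and naive WT cells.

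Across genotypes, 0 of the 10 members and 0 of 10139 genes passed the adjusted threshold for KO against WT in limma (0%), and at an unadjusted p under 0.05 there were 707 genes. The members Apoc1 (-2.14 ± 0.48, unadjusted p = 0.0038, adjusted p = 0.38) and Apoe (-1.66 ± 0.48, unadjusted p = 0.013, adjusted p = 0.53) were among them. No genotype test of Apoc4 is given, because WT libraries alone carried it past the filter and a difference was thereby fixed. Without the tolerized KO library, 151 genes were higher and 82 lower, and Apoc1 was called lower (-2.87, adjusted p = 7.6e-05). Without the tolerized WT library the counts were 148 and 82, and Apoc1 was again called lower. The other 7 members were between -0.60 (Lpl) and 0.37 (Nr1h3) in the full fit, each with an adjusted p of 0.77 or more.

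By size, 4 of 10 members were at least 2-fold lower in KO than in WT naive cells (Apoe, Apoc1, Apoc4 and Mylip), against 3.12% of all genes compared. Apoc4 entered these pairs through its WT level alone, so its place in the counts is no support for a difference. With LPS 3 of 9 were lower (Apoe, Apoc1 and Apoc4), against 3.05%, and in tolerized cells 1 of 9 (Lpl), against 0.774%. In no condition did a member reach 2-fold in the other direction. Every KO library was below every WT library for 2 members, Apoe and Apoc1, against 1.15% of genes tested. KO was below WT within all 3 conditions for 4 members (Apoe, Apoc1, Apoc4 and Lpl), against 18.2%. Apoc4 is no support in that count either, since WT libraries alone carried it past the filter. Its tolerized values were 0 FPKM in KO and 0.162 FPKM, about 1 fragment, in WT cells. On the log2(FPKM + 1) scale, KO minus WT for Apoe was -0.73 in tolerized, -2.02 in LPS and -2.24 in naive cells, smallest in tolerized cells, and the difference between these values was not tested. The WT level was lowest in the tolerized library, and the KO libraries spanned 2018 to 3678 FPKM.

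**Figure D2:**
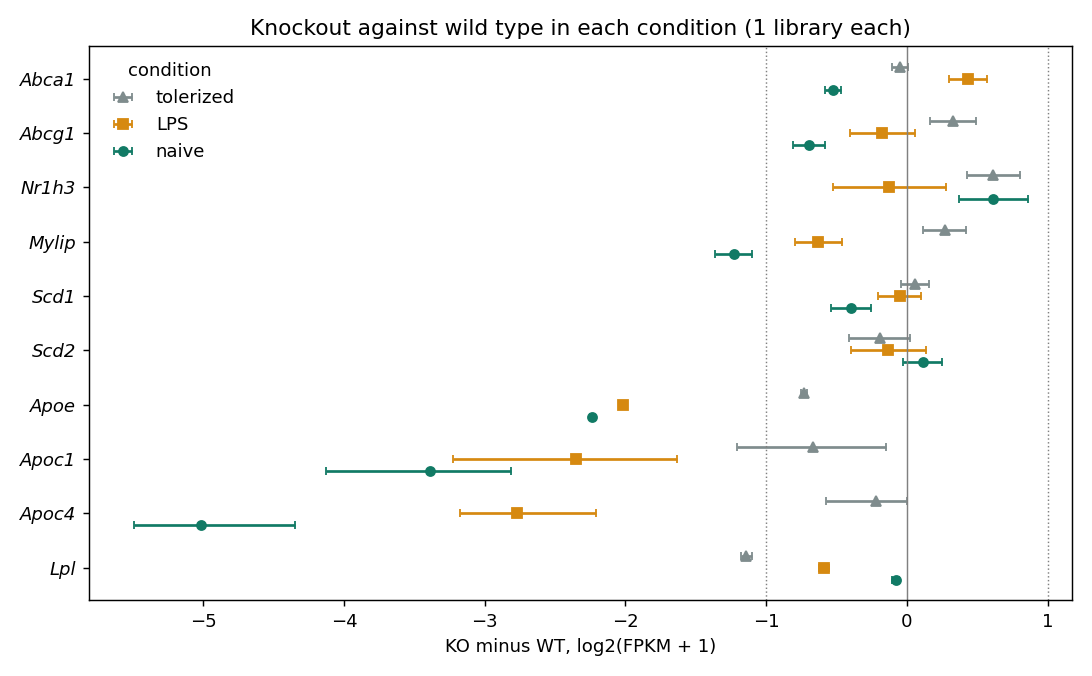
Difference KO minus WT in log2(FPKM + 1) for each gene, with triangles for tolerized, squares for LPS and circles for naive cells (1 library per group, bars spanning the difference between opposite ends of the deposited intervals, dotted lines at 2-fold). Apoe, Apoc1 and Apoc4 lie left of -2 in LPS and naive cells, and Lpl passes 2-fold only in tolerized cells (-1.14).

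Other genes differed between naive KO and naive WT cells in both directions. Of 12 macrophage markers 2 were higher in naive KO cells, with sums of 40338 FPKM in naive KO against 52985 FPKM in naive WT cells. Of 11 large peritoneal macrophage markers 3 were higher in naive KO than in naive WT cells, and the list summed to 686.8 FPKM in naive KO against 907.1 FPKM in naive WT cells, with none of the 11 below 1 FPKM in all libraries. Vsig4, a complement receptor, had 1.87 FPKM in naive KO against 158.5 FPKM in naive WT cells. The complement gene C1qa had 376.5 FPKM in naive KO against 1184 FPKM in naive WT cells. Pltp, the phospholipid transfer protein gene and an LXR target, had 70.6, 29.7 and 64.96 FPKM in tolerized, LPS and naive KO cells and 85.5, 205.9 and 484.1 FPKM in tolerized, LPS and naive WT cells. In the other direction, the scavenger receptor gene Marco had 3201 FPKM in naive KO against 542.7 FPKM in naive WT cells. Acsl1, a gene for activation of long-chain fatty acids, had 302.3 FPKM in naive KO against 26.8 FPKM in naive WT cells. The 8 measured neutrophil markers, 5 of them below 1 FPKM in all libraries, summed to 172.9 FPKM in naive KO against 67.6 FPKM in naive WT cells. The part of macrophage subsets, of neutrophils and of the raised LPS-response markers of the naive KO library in the apolipoprotein difference was not tested.

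Lpl (chromosome 8, 71404454 to 71430831), whose product hydrolyses the triglyceride of lipoproteins, had 146.2, 270.9 and 639.8 FPKM in tolerized, LPS and naive KO cells. In WT cells the tolerized, LPS and naive libraries held 323.5, 407.1 and 676.4 FPKM. Both genotypes were lowest in the tolerized and highest in the naive library. Lpl fell by 1.59 ± 0.34 in tolerized relative to naive cells (adjusted p = 0.020), a call lost without the naive KO (adjusted p = 0.051) or the tolerized KO library (-1.19, adjusted p = 0.15) and with no filter on low values (adjusted p = 0.063). It fell by 0.98 ± 0.34 with LPS (adjusted p = 0.045), a call lost after rescaling (-0.17, adjusted p = 0.70) and without the naive KO (-0.59, adjusted p = 0.17), KO LPS or WT LPS library (adjusted p = 0.17 for each), and with no filter (adjusted p = 0.090). Naive KO and WT cells differed by -0.08 on the log2 scale.

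Counted over the 10 members, 5 fell with LPS (Scd2, Abca1, Abcg1, Nr1h3 and Lpl) and 0 rose. In the same contrast 54.4% of all genes tested fell and 8.74% rose, so the share of members that fell is near the background. The members' median was -1.22, and that of all genes -0.76. After rescaling the all-gene median was -0.03, with 2201 genes higher and 2564 lower, and 4 members fell (all but Lpl) around a members' median of -0.66. Without the naive KO library the naive level rested on WT cells alone. The members' median was then -1.77 and that of all genes -0.68, with Apoc1 at -1.97, Apoc4 at -3.18 and Apoe at -1.41. Apoc4 passed the filter through WT cells alone, so its value is no support for a fall. Without either tolerized library the members' median was -1.22 and that of all genes -0.76. By size, 5 of 9 members were at least 2-fold lower with LPS in KO cells (42% of genes compared) and 8 of 10 in WT cells (39.8%).

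In tolerized relative to LPS cells 5 members rose (Abca1, Nr1h3, Scd2, Scd1 and Abcg1) and 0 fell, against 36.8% of all genes higher and 4.32% lower. The members' median was 0.82, and that of all genes 0.51. After rescaling 945 genes rose and 910 fell, and 3 members rose (Abca1, Nr1h3 and Scd2). With an LPS or tolerized library left out, that condition rested on 1 library. The medians of the members and of all genes were then 0.74 and 0.47 without KO LPS and 0.93 and 0.56 without WT LPS. They were 0.18 and 0.48 without tolerized KO, and 1.26 and 0.52 without tolerized WT. By size, 6 of 9 members were at least 2-fold higher in KO cells (24% of genes compared), and in WT cells 4 of 10 were higher (20.8%) and 1, Apoc4, was lower (4.54%). Apoc4 entered that pair through its WT LPS level alone, so its place is no support for a fall.

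Relative to naive cells, 3 members were lower in tolerized cells (Scd2, Abcg1 and Lpl) and 0 higher, against 19.7% of genes lower and 7.41% higher, with medians of -1.07 for the members and -0.22 for all genes. After rescaling 948 genes were higher and 1200 lower, and the members counted 3 lower and 1 higher (Scd1). Without the tolerized KO library the medians were -1.45 for the members and -0.25 for all genes, with the tolerized level resting on WT cells alone. By size, 1 of 9 members was higher in KO cells (Apoc1, 6.32% of genes compared) and 3 were lower (13.2%), and 7 of 10 were lower in WT cells (16.8%). The 7 include Apoc4, which entered that pair through its naive WT level alone, so its place is no support for a fall. Macrophage markers moved in the same contrast. Of 12, 7 fell and 2 rose in tolerized relative to naive cells around a median of -1.82, and they summed to 11996, 19127 and 40338 FPKM in tolerized, LPS and naive KO cells and to 17859, 25246 and 52985 FPKM in tolerized, LPS and naive WT cells. Of 11 large peritoneal macrophage markers 6 fell and 0 rose around a median of -1.55, with sums of 273.4, 405.1 and 686.8 FPKM in tolerized, LPS and naive KO cells and 187.5, 651.5 and 907.1 FPKM in tolerized, LPS and naive WT cells. Of 8 B cell markers 1 rose and 1 fell in tolerized relative to naive cells. In tolerized relative to LPS cells 5 of these 8 rose, or 2 after rescaling (median 1.14 before it, that of all genes 0.51), and 4 fell with LPS relative to naive cells, a share near that of all genes (54.4%). The B cell sum was 598.8, 274.4 and 568.1 FPKM in tolerized, LPS and naive KO cells and 481.9, 316.2 and 757.5 FPKM in tolerized, LPS and naive WT cells. The part of these cell types in the members' values was not tested.

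**Figure D3:**
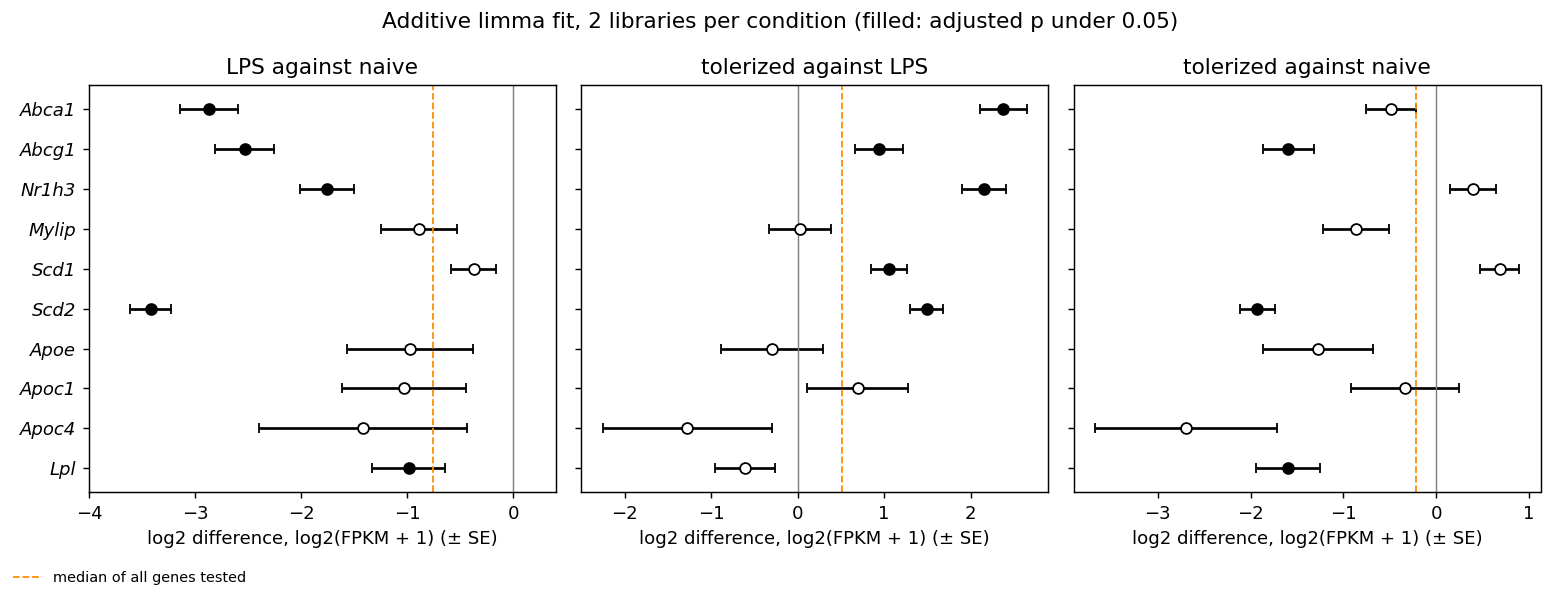
Estimates of the additive limma fit for the 10 genes (log2 difference ± SE, 2 libraries per condition), filled where the adjusted p was under 0.05, with the dashed line at the median of all 10139 genes tested. The 5 filled points at LPS against naive are Scd2, Abca1, Abcg1, Nr1h3 and Lpl, with Lpl at -0.98 beside the all-gene median of -0.76.

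Other genes of the pathway were counted over lists of lipid genes. Their counts stand against 54.4% of all genes lower and 8.74% higher with LPS (median -0.76), and 36.8% higher and 4.32% lower in tolerized relative to LPS cells (median 0.51). Smaller shares than 54.4% fell with LPS among further LXR targets, sterol genes, lipoprotein receptors, lipase partners and other apolipoproteins. Somewhat larger shares fell among cofactors and among fatty acid, oxysterol and PPAR genes, and none of these differences from the background was tested. The lists' medians with LPS were -0.99 for further LXR targets, -0.96 for receptors and cofactors, -1.32 for oxysterol genes, -0.75 for sterol genes, -0.76 for fatty acid genes, -0.67 for lipoprotein receptors and -1.27 for the PPAR axis. Lipase partners had a median of -0.52, and other apolipoproteins had 0.74, the only positive list median. Of 10 tested further LXR targets 4 fell with LPS and 1 rose (1 and 2 after rescaling). Arl4c, which encodes a small GTPase linked to cholesterol export, fell by 2.5 ± 0.21 (adjusted p = 0.00050) and Apoc2 by 1.67 ± 0.32 (adjusted p = 0.0052), and Tgm2, a transglutaminase of apoptotic cell clearance, rose by 1.26 ± 0.22 (adjusted p = 0.0036). Mertk, also in this list, had 22.8, 114.2 and 34.2 FPKM in tolerized, LPS and naive KO cells. Its WT values were 13.1, 8.37 and 53.5 FPKM in tolerized, LPS and naive cells. LPS thus lay above naive in KO and below naive in WT cells for Mertk, a difference between genotypes that was not tested. Of 14 receptor and cofactor genes 9 fell and 1 rose (4 and 2 after rescaling), among them Rxra and the coactivator gene Ncoa2 (-1.77). In tolerized relative to LPS cells 7 of these 14 rose, among them Rxra and Ncoa2 (1.36), or 3 rose and 1 fell after rescaling.

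Oxysterol genes held the largest increase of the lists. Ch25h, which makes the LXR ligand 25-hydroxycholesterol, had 355.6, 630.1 and 3.66 FPKM in tolerized, LPS and naive KO cells. The WT libraries held 241.8, 853.7 and 0.956 FPKM in tolerized, LPS and naive cells. Ch25h rose by 7.93 ± 0.40 with LPS (adjusted p = 0.00034) and fell by 1.32 ± 0.40 in tolerized relative to LPS cells (adjusted p = 0.042). Of the 12 tested genes of oxysterol and cholesterol ester handling 7 fell and 3 rose with LPS (6 and 4 after rescaling). Nceh1, which breaks down cholesterol esters, fell by 3.28 ± 0.33 (adjusted p = 0.00066). Soat1, which makes them, fell by 2.97 ± 0.22 (adjusted p = 0.00042). In tolerized relative to naive cells 7 fell and 1 rose, Ch25h (6.61), against 19.7% of all genes lower and 7.41% higher in that contrast. Among the 7 were Nceh1 (-3.42) and Cyp27a1 (-3.14), which makes 27-hydroxycholesterol.

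Of 24 sterol synthesis genes and SREBP2 targets 11 fell with LPS and 1 rose (5 and 5 after rescaling). Dhcr7, Mvd and Mvk, enzymes of cholesterol synthesis, fell by 3.25, 2.17 and 1.57. Srebf2, the gene of their main regulator, differed by -0.02 ± 0.21 (adjusted p = 0.93). In tolerized relative to LPS cells 5 rose, led by Insig2 (1.11), Dhcr7 (0.95) and Lss (0.94), and 1 fell, Insig1 (-0.92), while after rescaling 0 rose and 4 fell. Of 12 fatty acid genes 7 fell with LPS (3 fell and 3 rose after rescaling), led by the desaturase Fads1 (-3.09), the elongase Elovl5 (-2.20) and the acyltransferase Gpam (-1.18). Dgat2, which completes triglyceride, rose by 1.85 ± 0.27 in tolerized relative to LPS cells (adjusted p = 0.0081) and by 2.46 ± 0.27 relative to naive cells (adjusted p = 0.0036).

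Of 12 lipoprotein receptor genes 5 fell with LPS (3 fell and 3 rose after rescaling), led by Lrp1 (-2.60), Stab1 (-2.38) and the HDL receptor gene Scarb1 (-2.19). In tolerized relative to LPS cells 7 rose and 1 fell, the oxidised LDL receptor gene Olr1 (-1.46), and 0 rose and 2 fell after rescaling. Of 10 genes of the PPAR axis and lipid storage 6 fell with LPS and 1 rose (3 and 1 after rescaling). Angptl4, an inhibitor of lipoprotein lipase, fell by 3.41, the lipid droplet gene Plin3 fell by 2.29, and Hilpda, which blocks triglyceride breakdown in droplets, rose by 1.90. Without the naive KO library 9 genes of this list were tested, and Angptl4 was no longer among its 3 largest called changes. It probably passed the filter on low values through the naive libraries alone, so its place in the count is no support for a fall. Of 5 lipase partners 2 fell and 1 rose (1 and 1 after rescaling): Lipg, the endothelial lipase gene, rose by 4.04 ± 0.55 (adjusted p = 0.0015), and the lipase maturation gene Lmf1 fell by 1.55. Of 6 other apolipoprotein genes tested 2 rose with LPS, Apol9a (1.45) and Apol7c (1.15), and 1 fell, Apobec1 (-2.63), an RNA editing enzyme named for apolipoprotein B. In all these lists 0 genes passed for KO against WT in limma.

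**Figure D4:**
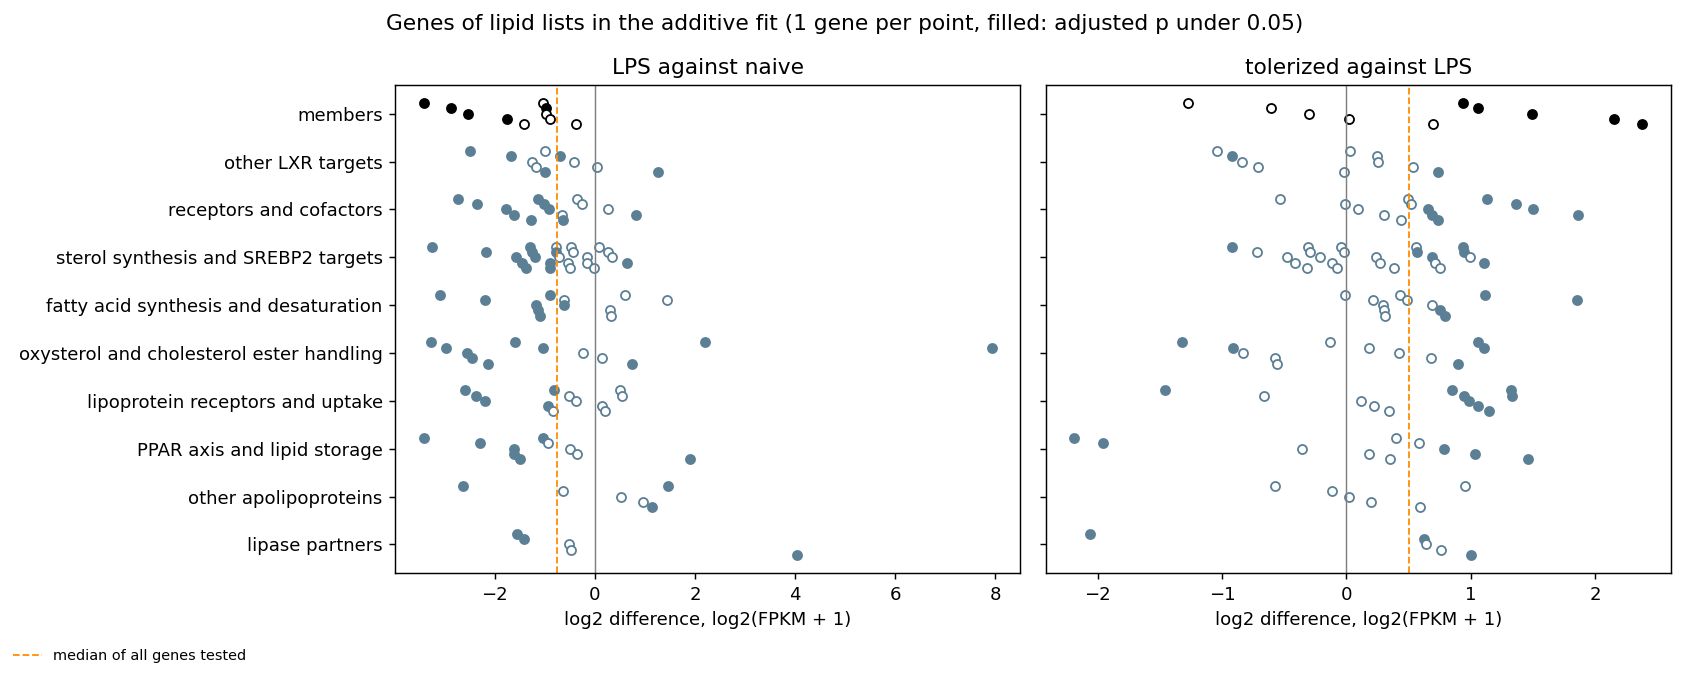
Log2 difference of each tested gene in the 10 members and 9 lipid lists, for LPS against naive (left) and tolerized against LPS (right), filled where the limma adjusted p was under 0.05, with the dashed line at the median of all genes tested. Ch25h is the point at 7.93 and Lipg the point at 4.04 on the left, and the members lie on both sides of the all-gene median in both contrasts.

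The members fell into patterns that resembled different genes. Over the 6 libraries, the genes nearest to Abcg1 were Tfeb, a transcription factor gene for lysosome synthesis, Smarca2 and Arhgap18, at root mean square distances of 0.092 to 0.107 on the centred log2 scale among 7310 genes at 10 FPKM or more in a library. For Scd2 they were Tpra1, 2610507I01Rik and Tmem51 (0.115 to 0.162), for Abca1 Fam168a, Nbeal2 and Nbr1 (0.182 to 0.222), and for Scd1 Anp32a, Polm and Gimap8 (0.114 to 0.131). The genes nearest to Mylip after Arhgap15 were Hmga2-ps1 and Rftn1. Lpl was nearest to Lyz2, Adk and Maged1 (0.210 to 0.239). Nr1h3 was nearest to Acp2, Zbtb7b and Ehbp1l1 (0.160 to 0.223), and Acp2, a lysosomal acid phosphatase gene, is separated from Nr1h3 by 7795 bases on chromosome 2.

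Apoe was nearest to Gpx3 (0.154), an extracellular glutathione peroxidase gene with 1.45, 0.665 and 2.45 FPKM in tolerized, LPS and naive KO cells and 2.20, 5.07 and 15.4 FPKM in tolerized, LPS and naive WT cells, and then to Apoc2 and Pltp (0.330 and 0.333). Apoc1 was nearest to Pltp, the coagulation factor gene F5 and the globin gene Beta-s (0.432 to 0.540). Apoc4 was nearest to Cd209a, Mamdc2 and F13a1 (0.367 to 0.554). Cd209a, a lectin gene of dendritic cells and macrophages, was at 0.0314, 0 and 0.0898 FPKM in tolerized, LPS and naive KO cells and at 0.0638, 11.7 and 36.9 FPKM in tolerized, LPS and naive WT cells. Between members, the Pearson r over the 6 libraries was 0.97 for Abcg1 and Scd2, 0.96 for Apoe and Apoc4, 0.90 for Apoe and Apoc1 and -0.07 for Apoe and Nr1h3, each a description of 6 libraries that share treatments and genotypes.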

How the data were processed

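Peritoneal macrophage mRNA was selected by its poly-A tail and prepared with a TruSeq kit, per the labels. Each library has 1 table of genes deposited by the authors, holding FPKM and the ends of an interval, per the file headers. The submitters' processing notes name bcl2fastq 1.8.4, TopHat, Cufflinks and mm9, and neither other versions nor the annotation nor the handling of shared reads is given in the sources used here. Samples were grouped by title into 6 groups of 1 library. Of 23699 rows, those not marked OK in every library (349), at more than 1 locus (529) or of small RNAs (654) were left out, and 22167 remained, summing to 555504 to 657582 FPKM per library.

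Genotype plus condition was fitted with limma 3.58.1 in R 4.3.3 (eBayes with trend, two-sided) to log2(FPKM + 1) of the 10139 genes that reached 2 FPKM in 2 or more libraries, with 2 residual and 4.20 prior degrees of freedom and Benjamini-Hochberg adjustment over all genes. An effect present in 1 genotype only counts as spread. KO and WT libraries came from different mice, but nothing says that the libraries of 1 genotype did. The spread behind each p-value is the departure from additivity of genotype and condition. It mixes technical spread with differences in response between the genotypes, and these cannot be told apart. Differences on this scale understate those of low genes. The 9 pairs of libraries were compared by size, at least 2-fold among genes at 2 FPKM or more in either library. Fragments per gene were implied from interval half-widths taken as 2 standard errors, and intervals and floors cover counting error only. For rescaling, libraries were divided by factors from the median of ratios, 1.07, 0.69 and 1.27 in tolerized, LPS and naive KO cells and 1.09, 0.76 and 1.29 in tolerized, LPS and naive WT cells. The 50 most abundant rows held 35.2% to 47.0% of each library's FPKM. Alternatives were pseudocounts of 0.1 and 5, no filter, no trend, 5 FPKM or 1.5-fold for pairs, rescaling, and each library left out.

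Named were the 10 members, Srebf1, Nr1h2, Rxra, Srebf2, Ch25h, Apoc2, Tnf, the 3 called genes of largest change per lipid list and the 3 genes nearest to each member in pattern. Vsig4, C1qa, Pltp, Lyz2, Marco, Acsl1 and list genes beyond the top 3 were named after their values were seen. The members, lists and tests were chosen with earlier results of these data known. Sequences are from RefSeq and GENCODE tables on GRCm38, matched by name, and no coordinates were moved between builds.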

Additional observations from a re-analysis of the deposited data

Results flagged for a closer look

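Each item below was picked because 2 groups moved in opposite directions under the same comparison, on the log2(FPKM + 1) scale. Each group is 1 library, and the differences between groups were not tested. Between tolerized and LPS cells, Mylip differed by 0.47 in KO and -0.43 in WT cells, and Apoe by 0.34 in KO and -0.94 in WT cells. After rescaling to a common median both genotypes were lower for both genes, Mylip by -0.13 in KO and -0.93 in WT and Apoe by -0.29 in KO and -1.47 in WT cells. Between tolerized and naive cells Apoc1 differed by 1.02 in KO and -1.70 in WT cells, or by 1.23 and -1.46 in KO and WT after rescaling, and the naive KO library holds 27 implied fragments of it.

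Between KO and WT, Abca1 differed by 0.43 in LPS and -0.53 in naive cells and Abcg1 by 0.33 in tolerized and -0.70 in naive cells. Mylip differed by 0.27 in tolerized, -0.63 in LPS and -1.23 in naive cells. The naive KO library is the one with raised LPS-response markers, and its part in these values was not tested.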

How the results depend on the processing

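Of the members' calls, Abca1, Abcg1, Scd2 and Nr1h3 fell with LPS, and Abca1 and Nr1h3 rose in tolerized relative to LPS cells, under every alternative run. The number of members called ranged from 4 to 8 for LPS against naive, 2 to 6 for tolerized against LPS, 3 to 5 for tolerized against naive and 0 to 2 for KO against WT when a library was left out. The 2 are Apoc1 and Apoc4, and Apoc4 passed the filter through WT libraries alone. Counts over all genes also moved widely when a library was left out. For tolerized against LPS, the fit without KO LPS called the fewest members and also the fewest genes in all. The ranges are not set against the share of all genes called in the same fit. They therefore do not show whether the members were called more or less often than other genes. For tolerized against LPS the number of members called was 3 after rescaling. In pairs, members at least 2-fold apart numbered 4 for LPS against naive in WT after rescaling, and at 1.5-fold 5 for KO against WT with LPS and 4 for KO against WT tolerized. Of all genes compared, 1705 were higher and 2031 lower of 10215 for LPS against naive in WT after rescaling. At 1.5-fold 935 were higher and 1240 lower of 8645 for KO against WT with LPS. For KO against WT tolerized 512 were higher and 280 lower of 9695. The cause of these moves was not tested. Without WT naive or WT LPS, Apoc4 failed the filter and 9 members were tested.

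Signs that turned belonged to differences that were not called. After rescaling they were Abca1 for KO against WT (0.015), Scd1 for LPS against naive (0.39) and Mylip for tolerized against LPS (-0.53). With each library left out in turn, KO minus WT ranged from -0.29 to 0.19 for Abca1, from -0.44 to 0.077 for Abcg1 and from -0.22 to 0.0025 for Scd1. Tolerized minus LPS ranged from -0.41 to 1.796 for Apoc1, from -3.11 to 0.56 for Apoc4, from -0.997 to 0.40 for Apoe and from -0.58 to 0.62 for Mylip, which was at -0.05 without KO LPS. Tolerized minus naive ranged from -1.44 to 0.77 for Apoc1. No paired analysis was possible because the labels give no replicate numbers and each group is 1 library. Depth limits Apoc4 in KO cells, at 0 or 1 implied fragment, and Apoc1 there, whose intervals reach 42.9% of the value.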
